A study of Mus musculus with 10 samples.

Results

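The genes described here are 40 genes of DNA replication and mitosis, out of 28185 genes in the deposited table. They were chosen by name, their symbols were matched to the Ensembl mouse identifiers of the table, and all 40 were found. By their known roles, 15 were grouped as S-phase genes and 24 as mitosis genes, and Stmn1, which encodes a protein that takes microtubules apart, was left outside both sets. A cell that divides first copies its DNA in S phase, for which it loads the MCM helicase at replication origins, clamps the polymerases onto DNA with PCNA and makes deoxynucleotides with ribonucleotide reductase. It then condenses and segregates its chromosomes in mitosis, driven by CDK1 with cyclins A and B, the Aurora and Polo kinases, kinetochore proteins and spindle motors. Neutrophils are made in the bone marrow from dividing precursors, and the mature cells that circulate in blood and enter injured tissue are held to have left the cell cycle.

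The 10 libraries came from cells that the authors enriched on magnetic beads for Ly6G, a surface protein of mouse neutrophils. The mice were male C57Bl/6J of 12 to 16 weeks, the left coronary artery was tied in all of them, and cells were collected at day 3. MI (n = 3) and Blood (n = 2) are cells of the left ventricle below the ligature and of blood from mice that received no mesenchymal stromal cells (MSC). MI + MSC (n = 3) and Blood + MSC (n = 2) are the same tissues from mice given syngeneic bone marrow MSC under the skin at 3 sites, with 1000000 cells at each site. No library from an unoperated or sham-operated mouse was analysed here, and nothing in the labels ties a library to a mouse, so p-values measure the spread between these libraries. The 6 MI and MI + MSC libraries are called infarct libraries below, and the 4 others blood libraries.

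Values are normalized counts, which are reads per gene divided by the DESeq2 size factor of the library. The reads on genes ranged from 148594 in MI 13 to 8602711 in Blood + MSC 24, and a single read was worth 8.40 normalized counts in MI 13 and 7.07 in Blood 21, while the range over the rest was 0.168 to 2.30. In these 2 shallow libraries, 21 and 33 of the 40 genes had 3 reads or fewer, so that their values come in coarse steps. Reads also fell on 814 olfactory and vomeronasal receptor genes, which blood and heart cells are not known to use, at 0.272 to 3.19 normalized counts per kb of exon in the infarct libraries and 0.0606 to 0.0912 in the blood libraries. At that density, 51.7% of the reads on the 40 genes in MI 13 and 17.8% of those in MI + MSC 17 would be background, against 1.38% to 9.94% in the other libraries. Only Pcna, Rrm2, Cenpe, Mki67 and Top2a stood above 3 times this background in MI 13. The infarct libraries also held RNA of heart cells, since the 8 cardiomyocyte markers summed to 3138 to 24249.7 normalized counts there and to 14.3 to 63.6 in blood. Among 9 neutrophil markers, 8 were called lower in the infarct libraries, where 18.1% of all tested genes were. The 9 summed to 2580.2 to 14907 there against 16948 to 48595 in blood. In bulk RNA, fewer cells of a type and less RNA per cell cannot be told apart.

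The promoters of the genes set the 2 groups apart by their letters. RefSeq windows on GRCm38.p6, which run from 250 bases before to 50 bases after the annotated start, were at hand for 33 of the 40 genes (36 windows). They were searched on both strands for TTTGAA or TTTAAA, the core letters of the cell cycle homology region of mitotic promoters, for CCAAT, the core of the NF-Y site, and for the E2F letters TTTCCCGC, TTTCGCGC, TTTGCCGC and TTTGGCGC. TTTGAA or TTTAAA stood in 19 of 21 windows of mitosis genes (90.5%), in 5 of 15 windows of S-phase genes (33.3%) and in 27.6% of all 32851 windows of the table. CCAAT stood in 90.5% of the mitosis windows, in 73.3% of the S-phase windows and in 37.4% of all windows. The E2F letters showed the opposite order, with 46.7% of the S-phase windows, 4.76% of the mitosis windows and 2.26% of all windows. These counts describe letters in a window, and whether a factor binds there was not measured. The 250 bases upstream of the start are printed 5′ to 3′ on the strand of the gene, with matches in capitals, for 4 mitosis or S-phase genes that stand out by level or change, for the helicase genes Mcm2 and Mcm6, and for Top2a, whose window held 6 CCAAT matches, as did that of Ube2c. All 7 lie on the minus strand, Mki67 at chr7:135716380-135716629, Cenpf at chr1:189688087-189688336, Kif23 at chr9:61946800-61947049, Top2a at chr11:99024190-99024439, Pcna at chr2:132253181-132253430, Mcm2 at chr6:88898781-88899030 and Mcm6 at chr1:128359706-128359955.
Mki67: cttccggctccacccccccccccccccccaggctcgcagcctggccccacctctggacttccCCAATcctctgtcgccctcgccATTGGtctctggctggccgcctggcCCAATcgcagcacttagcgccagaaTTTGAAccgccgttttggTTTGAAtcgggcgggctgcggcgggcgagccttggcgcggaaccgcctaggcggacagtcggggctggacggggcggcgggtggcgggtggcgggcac
Cenpf: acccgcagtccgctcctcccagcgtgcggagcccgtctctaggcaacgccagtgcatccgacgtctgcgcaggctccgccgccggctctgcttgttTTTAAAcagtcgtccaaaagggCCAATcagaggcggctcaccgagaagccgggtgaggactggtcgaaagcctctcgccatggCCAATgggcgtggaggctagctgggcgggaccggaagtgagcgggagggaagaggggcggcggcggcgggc
Kif23: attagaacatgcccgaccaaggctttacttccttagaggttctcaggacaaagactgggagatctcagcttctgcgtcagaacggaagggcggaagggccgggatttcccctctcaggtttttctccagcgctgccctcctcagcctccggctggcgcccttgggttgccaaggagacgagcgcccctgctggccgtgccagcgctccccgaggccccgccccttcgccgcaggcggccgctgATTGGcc
Top2a: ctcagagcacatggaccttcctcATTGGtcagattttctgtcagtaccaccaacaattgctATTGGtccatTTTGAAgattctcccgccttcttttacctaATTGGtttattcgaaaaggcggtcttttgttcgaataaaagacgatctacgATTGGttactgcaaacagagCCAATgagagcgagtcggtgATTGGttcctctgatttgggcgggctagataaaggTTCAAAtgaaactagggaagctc
Pcna: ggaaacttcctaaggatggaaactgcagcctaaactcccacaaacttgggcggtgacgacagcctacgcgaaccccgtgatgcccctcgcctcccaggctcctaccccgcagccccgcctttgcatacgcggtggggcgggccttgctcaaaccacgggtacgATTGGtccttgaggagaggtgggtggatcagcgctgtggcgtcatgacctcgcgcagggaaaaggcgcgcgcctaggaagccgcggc
Mcm2: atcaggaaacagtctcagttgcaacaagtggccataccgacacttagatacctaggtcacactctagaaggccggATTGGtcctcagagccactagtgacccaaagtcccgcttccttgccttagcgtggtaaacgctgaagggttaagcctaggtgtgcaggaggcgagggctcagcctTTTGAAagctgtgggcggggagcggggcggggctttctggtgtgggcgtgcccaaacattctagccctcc
Mcm6: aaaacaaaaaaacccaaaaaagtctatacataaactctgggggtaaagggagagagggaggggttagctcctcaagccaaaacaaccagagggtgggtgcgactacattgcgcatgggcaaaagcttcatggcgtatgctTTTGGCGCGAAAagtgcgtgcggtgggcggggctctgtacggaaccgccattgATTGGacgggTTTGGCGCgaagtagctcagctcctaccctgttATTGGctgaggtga
The Mki67 stretch held 3 CCAAT matches and 2 of TTTGAA, the Top2a stretch held 6 and 2, and the Cenpf stretch held 2 CCAAT matches and 1 of TTTAAA. Mcm6 held 3 E2F matches, a pair of which overlap on opposite strands in the longest run of capitals, and 2 CCAAT matches. Kif23 and Pcna held 1 CCAAT match each and no E2F letters, and Mcm2 held 1 CCAAT and 1 TTTGAA match.

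More RNA of these genes was read in the infarct libraries than in the blood libraries. Reads on the 40 genes came to 1198, 1156 and 1506 per 1000000 gene reads in the MI and 1343, 1125 and 1990 in the MI + MSC libraries, against 298 and 553 in the libraries of Blood and 535 and 663 in those of Blood + MSC. Every infarct library stood above every blood library in these reads, with 1386 ± 328 reads per 1000000 (SD, n = 6) against 512 ± 154 (n = 4). With the reads expected from the background taken off, MI 13 fell to 579, below Blood + MSC 24 at 647, while the 5 other infarct libraries, at 924 to 1898, stayed above all blood libraries. By gene, every infarct library stood above every blood library for 18 of the 40 genes and below for Kif23, and the ranges overlapped for 21. The 18 include Plk1 and Aurkb, which were too low to be tested. Among the 36 genes tested below, 16 stood apart upward and 1 downward, where 19.1% and 14% of all 11549 tested genes did.

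**Figure D1:**
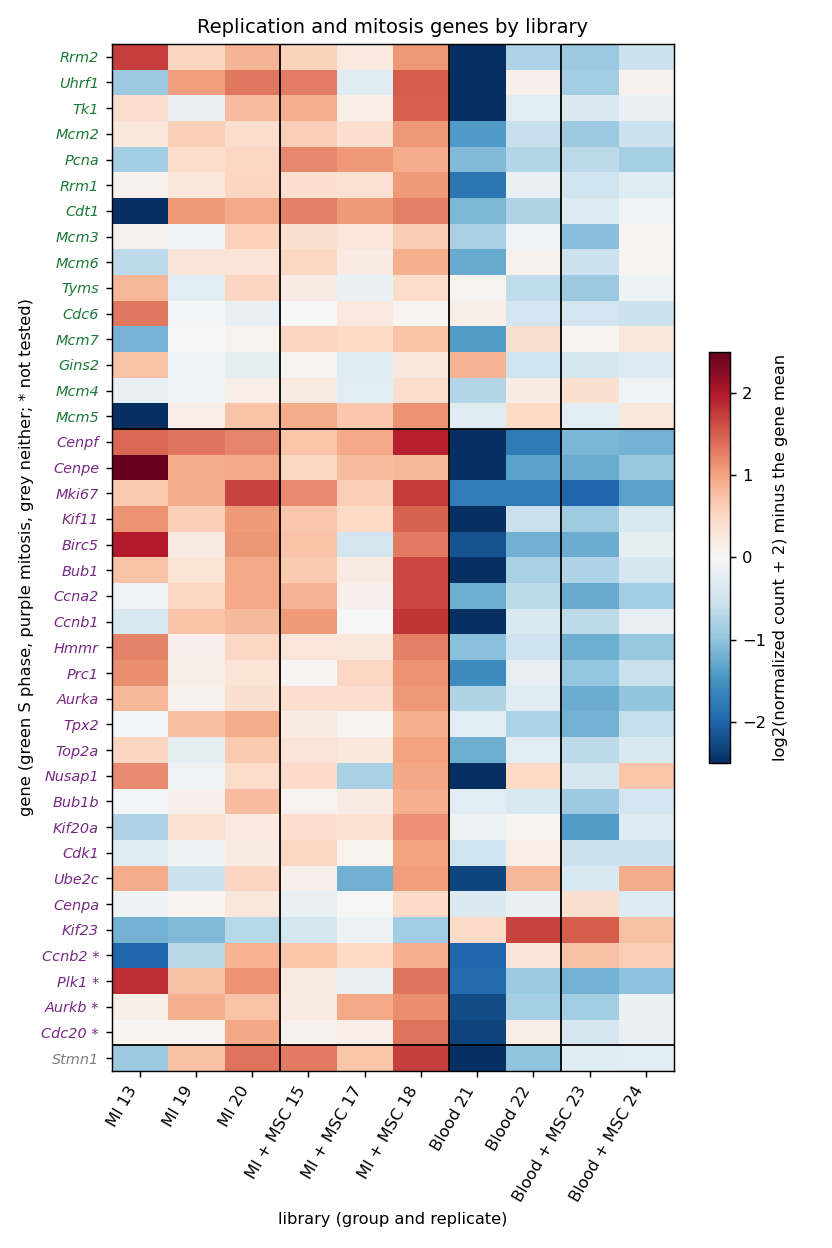
Each row is a gene and each column a library, and colour gives log2(normalized count + 2) minus the mean of the gene over the 10 libraries. Genes are ordered within the S-phase and the mitosis set by their difference between infarct and blood, and an asterisk marks the 4 genes that were not tested. Most rows are red in the 6 infarct columns and blue in the 4 blood columns, Kif23 shows the reverse, and MI 13 and Blood 21 hold the most extreme cells.

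Of the 40 genes, 36 passed the filter, a mean of 10 normalized counts or more, and were tested with limma, among them all 15 S-phase genes and 20 of 24 mitosis genes. Ccnb2, Plk1, Aurkb and Cdc20 were below it. A gene was called at a Benjamini-Hochberg adjusted p under 0.05 over the 11549 tested genes and an absolute log2 difference of at least 0.5. Differences are on the scale of log2(normalized count + 2), which understates those of low genes. Between infarct and blood, averaged over MSC, 21 of the 36 genes were called higher, where 25.3% of all tested genes were, and 1 was called lower, where 18.1% were. The median difference was 1.17 for the 36 genes and 0.12 for all tested genes. With trimmed-mean (TMM) scaling the median of all tested genes moved to -0.33, and 39.6% of all calls were higher against 58.3% with the deposited scaling. Of the 36 genes, 9 were then called higher, where 13.3% of all tested genes were. With scaling to library size these values were 0.45, 74.9%, 24 and 34.7%. After the background per kb was subtracted, 9 genes were called higher as well, where 12.8% of all tested genes were. The count also moved without Blood + MSC 23, which leaves Blood + MSC 24 alone in its group. Mki67, Cenpf, Cenpe, Kif11, Ccna2 and Hmmr, all higher, and Kif23, lower, were called in each of the 23 ways in which this comparison was computed. Of the genes called here, Birc5, Ccnb1, Tk1, Mcm3 and Bub1b were called least often, in 15, 13, 11, 9 and 8 of the 23 ways.

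The 6 infarct and 4 blood libraries did not overlap for 17 of the 36 tested genes, 16 of them higher in the infarct libraries and Kif23 lower. Over all tested genes, 19.1% stood apart in the first direction and 14% in the second. Of the 16 genes, 4 were S-phase genes (Mcm2, Rrm1, Rrm2 and Tk1) and 12 were mitosis genes. Plk1 and Aurkb, which were not tested, also stood higher in each infarct library, with means of 13.1 and 13.5 normalized counts against 1.24 and 3.20 in blood. In Blood 21, a value of 0 allows up to 3 reads, or 21.2 normalized counts. That is above the lowest infarct value of Rrm2, Tk1, Bub1, Plk1 and Aurkb, which all read 0 there, so their order is not firm. In MI 13, only Rrm2, Cenpe, Mki67 and Top2a of the 16 genes stood above 3 times the background. For the others, the place of MI 13 above blood is not firm either. Bub1b and Tpx2 had 16.8 normalized counts (2 reads) there, against 14.1 (2 reads) in Blood 21. Cenpf had 58.8 in MI 13, where a background of 52.8 was expected.

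**Figure D2:**
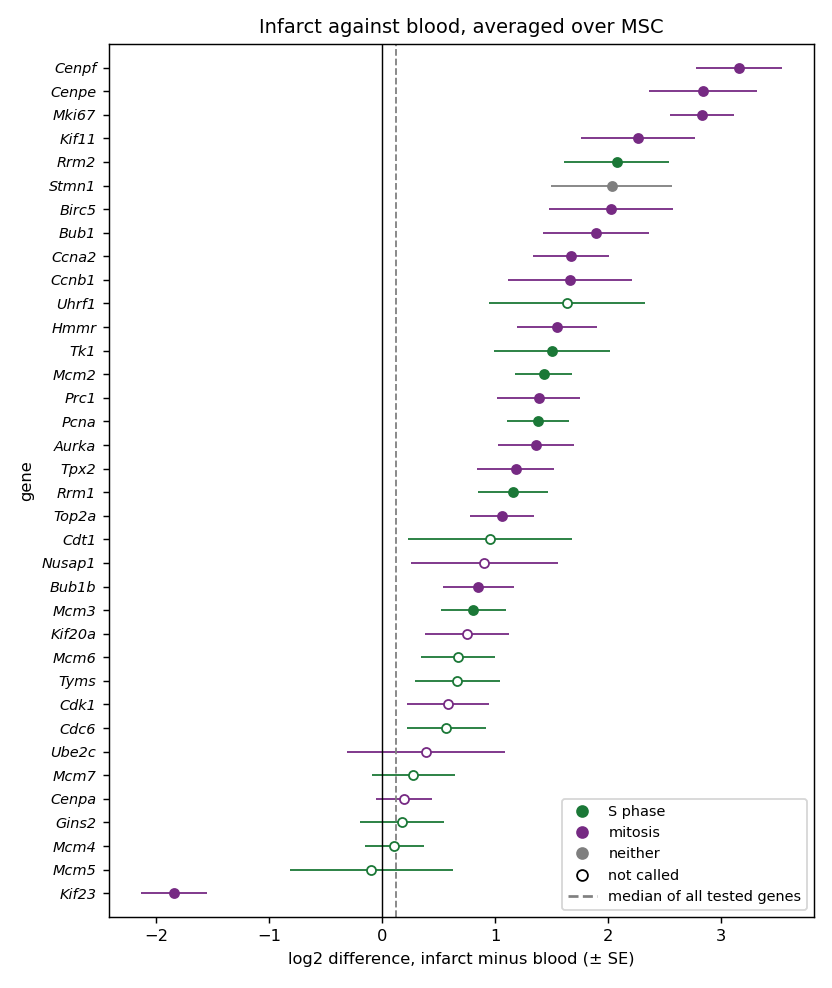
Points give the log2 difference of each tested gene between infarct and blood libraries, averaged over MSC, with its standard error. Filled points were called, green marks S-phase genes, purple mitosis genes and grey Stmn1, and the dashed line is the median of all tested genes (0.12). Cenpf, Cenpe and Mki67 lie farthest to the right, Kif23 alone lies far to the left, and MCM genes make up 3 of the 6 lowest points.

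Among the S-phase genes, 6 of 15 were called higher in the infarct libraries, where 25.3% of all tested genes were, and their median difference was 0.80. Of the 6 subunit genes of the MCM2-7 helicase, which opens the DNA ahead of the polymerases, 2 were called higher. That count is near the share of all tested genes. Mcm2 stood at 50.4 to 88.1 normalized counts in the infarct libraries and at 14.1 to 27.6 in blood, with a difference of 1.43 (SE 0.25, adjusted p = 0.00119), and Mcm3 followed with 0.80 (SE 0.29, adjusted p = 0.0409). Mcm5 read 0, 29.8 and 44.8 normalized counts in the MI and 52.0, 43.6 and 59.7 in the MI + MSC libraries, against 21.2 and 38.3 in the libraries of Blood and 21.8 and 32.6 in those of Blood + MSC. Its value of 0 in MI 13 allows up to 3 reads, or 25.2 normalized counts at the depth of that library, and its difference was -0.10 (SE 0.72, adjusted p = 0.924). Mcm6 had 33.6, 68.2 and 67.4 normalized counts in the MI and 78.4, 62.0 and 102 in the MI + MSC libraries, against 21.2 and 58.5 in the libraries of Blood and 36.5 and 56.9 in those of Blood + MSC. The ranges of infarct and blood overlapped for Mcm6, whose difference of 0.67 (SE 0.33, adjusted p = 0.117) was not called. Mcm4 and Mcm7 lay near 0, with 0.11 and 0.27 and adjusted p of 0.763 and 0.57.

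None of the 3 genes of origin licensing and firing was called. Cdc6 and Cdt1, which load the helicase onto origins, differed by 0.57 (SE 0.35, adjusted p = 0.209) and 0.96 (SE 0.73, adjusted p = 0.306), and Gins2, a subunit of the complex that activates it, by 0.18 (SE 0.37, adjusted p = 0.721). Cdt1 stood at 36.0 to 45.4 normalized counts in 5 infarct libraries and at 0 in MI 13, while the blood libraries held 7.07 to 16.5. Without MI 13 it was among the called genes.

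Pcna, the sliding clamp of the DNA polymerases, had the highest level of the 40 genes. It stood at 118, 295 and 308 normalized counts in the MI and 494, 457 and 410.1 in the MI + MSC libraries, against 98.9 and 129 in the libraries of Blood and 136 and 120.3 in those of Blood + MSC. MI 13 overlapped the blood libraries, and the other 5 infarct libraries stood above all of them. The means were 347 ± 138 (SD, n = 6) in the infarct libraries and 121 ± 15.9 (n = 4) in blood, a difference of 1.38 (SE 0.28, adjusted p = 0.00244). Processed pseudogenes of Pcna and Ccnb2 are annotated, so the reads of these 2 genes may be split with a close copy.

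Of the 4 genes of nucleotide supply, 3 were called higher, where 25.3% of all tested genes were. Rrm2, the subunit of ribonucleotide reductase that cells make for S phase, had 42.0, 17.3 and 22.1 normalized counts in the MI and 17.6, 13.8 and 26.4 in the MI + MSC libraries, against 0 and 5.85 in the libraries of Blood and 4.99 and 7.23 in those of Blood + MSC. Each infarct library stood above each blood library, and the difference was 2.07 (SE 0.46, adjusted p = 0.00456). The value of 0 in Blood 21 allows up to 3 reads, or 21.2 normalized counts, which is above the lowest infarct values of Rrm2. Rrm1, the other subunit, rose by 1.16 (SE 0.31, adjusted p = 0.012), and Tk1, the thymidine kinase of dividing cells, by 1.50 (SE 0.51, adjusted p = 0.0341). Tyms, which makes thymidylate, had 25.2, 10.6 and 20.1 normalized counts in the MI and 15.5, 11.5 and 18.98 in the MI + MSC libraries, against 14.1 and 7.80 in the libraries of Blood and 6.04 and 11.9 in those of Blood + MSC. These ranges overlapped, and its difference of 0.66 (SE 0.37, adjusted p = 0.169) was not called. Uhrf1, which keeps DNA methylation at newly copied DNA, differed by 1.64 (SE 0.69, adjusted p = 0.076), a large difference with a large error, since MI 13 and MI + MSC 17 lay within the blood range of 0 to 19.5 normalized counts.

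Among the mitosis genes, 14 of 20 were called higher and 1 lower, where 25.3% and 18.1% of all tested genes were. Their median difference was 1.37. The largest differences were those of 2 kinetochore genes, Cenpf and Cenpe, and 4 of the 5 genes of this group were called. Cenpf, a large protein of the outer kinetochore, read 58.8, 54.8 and 49.9 normalized counts in the MI and 34.5, 41.3 and 84.1 in the MI + MSC libraries, against 0 and 4.55 in the libraries of Blood and 8.14 and 7.91 in those of Blood + MSC. The infarct mean was 10.5 times the blood mean, and the difference was 3.16 (SE 0.38, adjusted p = 0.000112). Cenpe, the kinesin that carries chromosomes to the spindle equator, had 134, 35.6 and 36.0 normalized counts in the MI and 26.4, 32.1 and 33.2 in the MI + MSC libraries, against 0 and 5.85 in the libraries of Blood and 6.30 and 8.24 in those of Blood + MSC. MI 13 held the highest value, from few reads, and the 5 other infarct libraries lay between 26.4 and 36.0, still above each blood library, with a difference of 2.84 (SE 0.48, adjusted p = 0.000867). Bub1, a kinase of the spindle checkpoint, had 16.8, 12.5 and 20.1 normalized counts in the MI and 16.2, 11.5 and 34.6 in the MI + MSC libraries, against 0 and 4.55 in the libraries of Blood and 4.73 and 6.56 in those of Blood + MSC. Bub1 was higher in each infarct library, by 1.89 (SE 0.47, adjusted p = 0.00782), though its 0 in Blood 21 allows up to 21.2 normalized counts. Its relative Bub1b rose by 0.85 (SE 0.32, adjusted p = 0.0476), while Cenpa, the histone H3 variant of centromeres, stood at 39.8 ± 7.58 in the infarct libraries and 35.0 ± 10.1 in blood and was not called (difference 0.19 (SE 0.25, adjusted p = 0.559)).

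Mki67, the antigen of the Ki-67 stain that coats mitotic chromosomes, was the mitosis gene with the most counts. Its values were 193, 235 and 402 normalized counts in the MI and 279, 188 and 416 in the MI + MSC libraries, against 35.3 and 35.1 in the libraries of Blood and 29.7 and 47.3 in those of Blood + MSC. The lowest infarct library, at 188, stood well above the highest blood library, at 47.3, and the means were 286 ± 101 (SD, n = 6) and 36.8 ± 7.43 (n = 4). The difference was 2.83 (SE 0.28, adjusted p = 3.41e-05), and it was called in each setting of each infarct against blood comparison. Top2a, the topoisomerase that untangles sister chromosomes, had 101, 57.7 and 110.1 normalized counts in the MI and 86.5, 82.7 and 140.3 in the MI + MSC libraries, against 28.3 and 56.5 in the libraries of Blood and 42.8 and 52.5 in those of Blood + MSC. All infarct libraries stood above all blood libraries, although MI 19 exceeded Blood 22 by little, and the difference was 1.06 (SE 0.28, adjusted p = 0.0113).

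Of the kinases and cyclins, 3 of 4 tested genes were called higher, where 25.3% of all tested genes were. Ccna2, the cyclin of S phase and early mitosis, had 33.6, 51.9 and 70.5 normalized counts in the MI and 65.6, 39.0 and 118 in the MI + MSC libraries, against 14.1 and 22.1 in the libraries of Blood and 13.7 and 18.5 in those of Blood + MSC. It was higher in each infarct library, by 1.67 (SE 0.34, adjusted p = 0.00257). Ccnb1, the cyclin that drives entry into mitosis, had 8.40, 20.2 and 21.6 normalized counts in the MI and 26.4, 11.5 and 44.7 in the MI + MSC libraries, against 0 and 8.45 in the libraries of Blood and 6.57 and 9.76 in those of Blood + MSC. MI 13 lay at a single read and overlapped the blood range, and the difference was 1.66 (SE 0.55, adjusted p = 0.0288). Aurka, a kinase of the spindle poles, rose by 1.36 (SE 0.34, adjusted p = 0.00779). Cdk1, the kinase that both cyclins activate, had 8.40, 9.61 and 12.9 normalized counts in the MI and 16.2, 11.5 and 23.7 in the MI + MSC libraries, against 7.07 and 12.3 in the libraries of Blood and 6.83 and 6.73 in those of Blood + MSC. Its ranges overlapped, and the difference of 0.58 (SE 0.37, adjusted p = 0.214) was not called. Birc5 (survivin), a subunit of the chromosomal passenger complex, had 33.6, 8.65 and 17.5 normalized counts in the MI and 12.8, 4.59 and 20.3 in the MI + MSC libraries, against 0 and 1.95 in the libraries of Blood and 1.84 and 5.72 in those of Blood + MSC. MI + MSC 17 lay below the highest blood library, and the difference was 2.02 (SE 0.55, adjusted p = 0.0124).

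The spindle and cytokinesis genes split. Kif11, the motor that pushes spindle poles apart, had 50.4, 34.6 and 48.4 normalized counts in the MI and 36.5, 32.1 and 65.1 in the MI + MSC libraries, against 0 and 14.3 in the libraries of Blood and 11.0 and 16.3 in those of Blood + MSC. Each infarct library was above each blood library, with a difference of 2.27 (SE 0.50, adjusted p = 0.00448). Hmmr, a spindle assembly factor, had 42.0, 18.3 and 24.7 normalized counts in the MI and 20.95, 20.7 and 42.7 in the MI + MSC libraries, against 7.07 and 11.0 in the libraries of Blood and 6.04 and 7.74 in those of Blood + MSC. It also stood apart, by 1.55 (SE 0.35, adjusted p = 0.0051), and Prc1, which bundles the midzone of the spindle, and Tpx2, which activates Aurora A on the spindle, rose by 1.38 and 1.18 (adjusted p = 0.0106 and 0.016). Nusap1, a microtubule bundler, and Kif20a, a kinesin of cytokinesis, were not called, with 0.90 and 0.75. Ube2c, the ubiquitin-conjugating enzyme of the anaphase-promoting complex, had 16.8, 4.81 and 12.4 normalized counts in the MI and 8.79, 2.30 and 18.3 in the MI + MSC libraries, against 0 and 15.6 in the libraries of Blood and 5.52 and 16.7 in those of Blood + MSC. Its libraries overlapped throughout, with a difference of 0.39 (SE 0.70, adjusted p = 0.676).

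Kif23, the kinesin of the central spindle, ran against the other genes. It read 25.2, 26.9 and 36.0 normalized counts in the MI and 43.9, 55.1 and 31.9 in the MI + MSC libraries, against 84.8 and 198 in the libraries of Blood and 176 and 102 in those of Blood + MSC. Each blood library stood above each infarct library, and the means were 36.5 ± 11.3 (SD, n = 6) in the infarct libraries and 140.0 ± 55.1 (n = 4) in blood. The difference was -1.84 (SE 0.29, adjusted p = 0.000618). In blood it had the highest mean count of the 40 genes, above Pcna in Blood 22 and Blood + MSC 23. Prc1, another gene of the central spindle, stood at 7.07 to 21.4 in the blood libraries. No other gene of the table overlaps Kif23 in the GENCODE annotation, while 12 of the 40 genes overlap a gene on the other strand and the authors counted by strand.

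Stmn1 rose with most of the others, with 8.40, 30.8 and 48.4 normalized counts in the MI and 46.6, 29.8 and 62.4 in the MI + MSC libraries, against 0 and 7.80 in the libraries of Blood and 13.9 and 14.5 in those of Blood + MSC. MI 13, with a single read, lay within the blood range, and the other 5 infarct libraries were above it. The difference was 2.03 (SE 0.53, adjusted p = 0.0105).

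**Figure D3:**
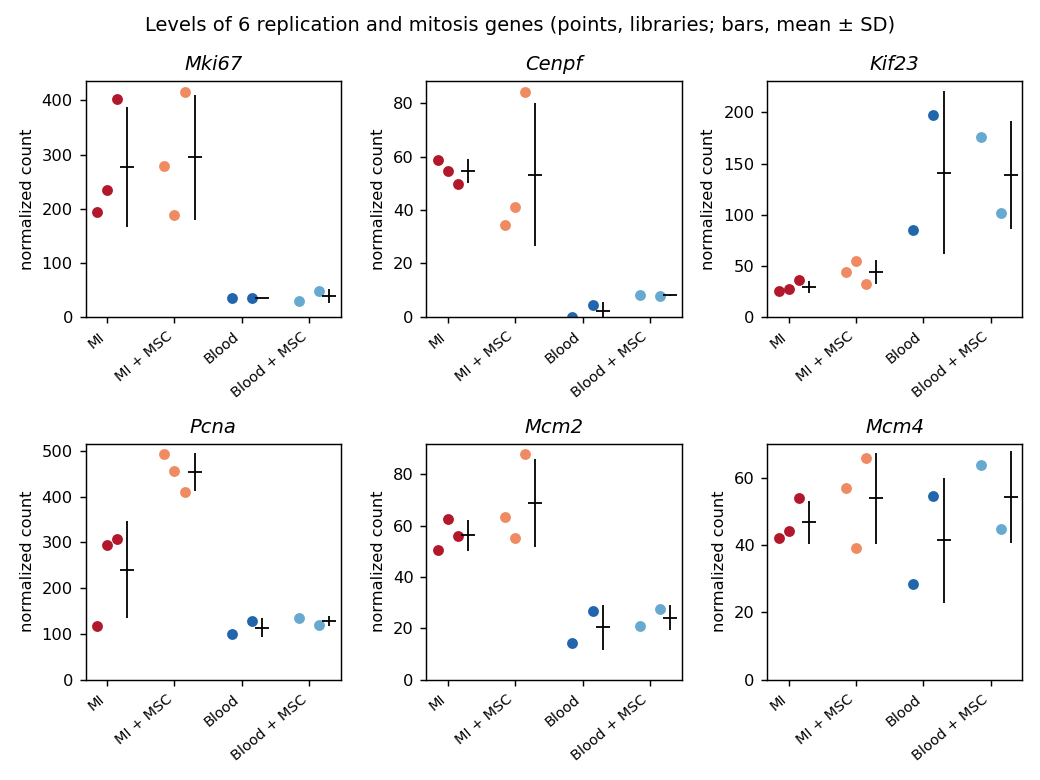
Points are normalized counts of single libraries on linear axes that start at 0, and bars give the mean ± SD of each group (n = 3 in MI and MI + MSC, n = 2 in Blood and Blood + MSC). Mki67, Cenpf and Mcm2 are higher in each infarct library than in each blood library, Kif23 is lower, Pcna is highest in MI + MSC, and the groups overlap for Mcm4.

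In mice without MSC, 13 of the 36 genes were called higher in MI than in Blood, where 21.2% of all tested genes were, and Kif23 was called lower (-2.08, adjusted p = 0.00377), where 13.5% were. The called genes were 3 of 15 S-phase genes (Rrm2, Mcm2 and Rrm1), 9 of 20 mitosis genes and Stmn1, and the medians of the sets were 0.64 and 1.40. The largest differences were those of Cenpf (3.96 (SE 0.54, adjusted p = 0.000502)) and Cenpe (3.87 (SE 0.67, adjusted p = 0.00194)). This count moved to 6 of 34 tested genes without MI 20, where 18.3% of all tested genes were called higher. It fell to 3 of 36 when limma was fitted to these 5 libraries alone, where 9.45% were. In neither case was the share of these genes above that of all tested genes. The count also moved without Blood 21, which leaves a single library in Blood.

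After MSC, 7 of the 36 genes were called higher in MI + MSC than in Blood + MSC, where 8.23% of all tested genes were, and Kif23 was called lower (-1.61, adjusted p = 0.0259), where 5.85% were. They were Mcm2 and Pcna of the S-phase set and Mki67, Cenpf, Ccna2, Aurka and Hmmr of the mitosis set, and the set medians were 0.95 and 1.35. Pcna differed by 1.81 (SE 0.39, adjusted p = 0.0121) here and by 0.95 (SE 0.39, adjusted p = 0.0772) without MSC. The count was 2 to 11 without single infarct libraries, where 4.08% to 12.4% of all tested genes were called higher. It also moved when a Blood + MSC library was left out, which leaves a single library in that group. The median difference of these genes was then 0.95 or 1.53, against 0.10 and 0.13 for all tested genes. Without MI 13 and Blood 21, which leaves a single library in Blood, the medians were 1.21 and 0.05. The comparisons without and with MSC set different libraries against each other. They share the spread estimated in 1 fit of all 10 libraries, so they are not independent, and both are parts of the averaged comparison above.

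The S-phase and mitosis sets were set against each other within each library. Mitosis genes took 64.4%, 49.4% and 55.8% of the reads of both sets in the MI and 43.8%, 43.2% and 54.4% in the MI + MSC libraries, against 46.3% and 50.7% in the libraries of Blood and 49.7% and 46.6% in those of Blood + MSC. These shares overlapped between infarct (43.2% to 64.4%) and blood (46.3% to 50.7%), and for MI 13 the exact Clopper-Pearson 95% interval ran from 56.9% to 71.4%, from 177 reads and counting error alone. Mki67, Kif23 and Pcna hold a large part of these reads. Without the 3 genes, which were left out after their values were seen, the mitosis share was 46.8% to 64.2% in the infarct libraries and 40.8% to 43.5% in the blood libraries, which did not overlap. Blood 21, with the lowest share, had an interval of 27.0% to 55.8%, which covers most of the other shares. None of these shares was corrected for the background per kb. That background was 3.26% to 51.7% of the reads on the genes described here in the infarct libraries and 1.38% to 3.76% in blood. Background of even density would fall more on the mitosis set, which holds more exon. Whether the shares stay apart without it was not tested. By gene, 14 of 20 mitosis and 6 of 15 S-phase genes were called higher in the averaged comparison, where 25.3% of all tested genes were. The medians of 1.37 and 0.80 were both above that of all tested genes. Whether the sets differ from each other was not tested, since genes of a set are not replicates.

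**Figure D4:**
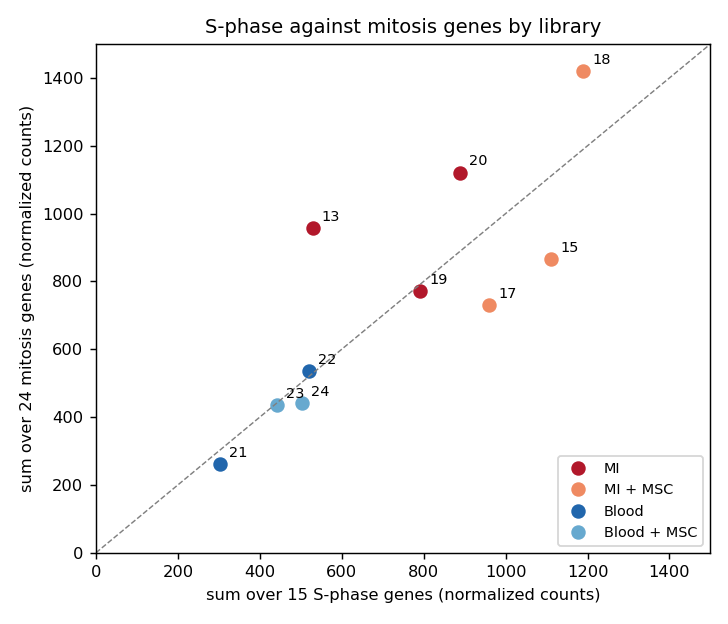
Each point is a library, placed by the sum of normalized counts over the 15 S-phase genes (horizontal) and over the 24 mitosis genes (vertical), with its replicate number. Blood libraries lie at 304 to 520.4 and 261 to 535 along the dashed line of equal sums, infarct libraries reach farther out on both axes, MI 13, MI 20 and MI + MSC 18 lie above the line and MI + MSC 15 and 17 below it.

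The promoter letters can be set beside these calls. TTTGAA or TTTAAA stood in 15 of 19 windows (78.9%) of genes called higher in the infarct libraries and in 5 of 13 windows (38.5%) of tested genes that were not called. The E2F letters stood in 1 and 7 of these windows (5.26% and 53.8%). Both splits follow the S-phase and mitosis sets in part, since 9 of the 14 genes not called were S-phase genes. Kif23, which was lower, and Mki67, which was higher, both held TTTGAA or TTTAAA and CCAAT in their windows of 300 bases.

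No gene of either set was called with MSC in the 4 tools run on all libraries. Between MI + MSC and MI, limma called 0 of 36 genes in either direction, where 0% of all tested genes were, and 1 gene had an unadjusted p under 0.05 in limma. edgeR, DESeq2 and limma-voom called 0 of the 36 as well, and 20, 79 and 261 of all 11549 genes (0.173%, 0.684% and 2.26%). The 1 gene was Pcna, which was higher in each MI + MSC library (454 ± 42.1, n = 3) than in each MI library (240.2 ± 106, n = 3), with a limma difference of 1.03 (SE 0.35, unadjusted p = 0.0128, adjusted p = 0.544). When limma weighted the libraries by their quality, Pcna was the 1 of 36 genes called higher, while 2.81% of all tested genes were, so this count is at the background. Mcm7 also stood higher in each MI + MSC library (57.4 to 67.1 against 16.8 to 42.7 normalized counts), and Cenpe lower (26.4 to 33.2 against 35.6 to 134). Over all tested genes, 7.05% stood apart upward and 9.6% downward in this comparison, so 2 and 1 of 36 genes are no more than the background. All 6 helicase genes had a positive difference, with a median of 0.40, and the differences of Mcm5 (1.89, SE 0.91) and Cdt1 (1.62, SE 0.92) rest on their values of 0 in MI 13. Mki67 hardly moved, with 0.09 (SE 0.36).

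In blood, limma called 0 of 36 genes between Blood + MSC and Blood, where 0% of all tested genes were, and 2 genes, Cenpf and Stmn1, had an unadjusted p under 0.05 in limma. edgeR, DESeq2 and limma-voom called 0 of the 36 as well, and 0, 179 and 0 of all tested genes (0%, 1.55% and 0%). Cdt1, Cenpe, Cenpf, Bub1 and Stmn1 were higher in both Blood + MSC libraries and Cdk1, Aurka, Bub1b and Kif20a lower, while 21% and 15.4% of all tested genes stood apart with 2 libraries against 2. Stmn1 differed by 1.87 (SE 0.83, adjusted p = 0.672) and Cenpf by 1.47 (SE 0.59, adjusted p = 0.672). In Blood 21, 16 of the 40 genes had no read. Leaving out Blood 22 leaves Blood 21 alone in its group, and the number called then moved among the 36 genes and among all tested genes. Pcna (0.18), Mki67 (0.09) and Kif23 (0.05) lay near 0. The difference between the MSC differences in infarct and blood was called for 0 of 36 genes by limma, with 0% of all tested genes, and by edgeR, DESeq2 and limma-voom, which called 0, 20 and 0 of all tested genes, and 0 of the 36 had an unadjusted p under 0.05 in limma.

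**Figure D5:**
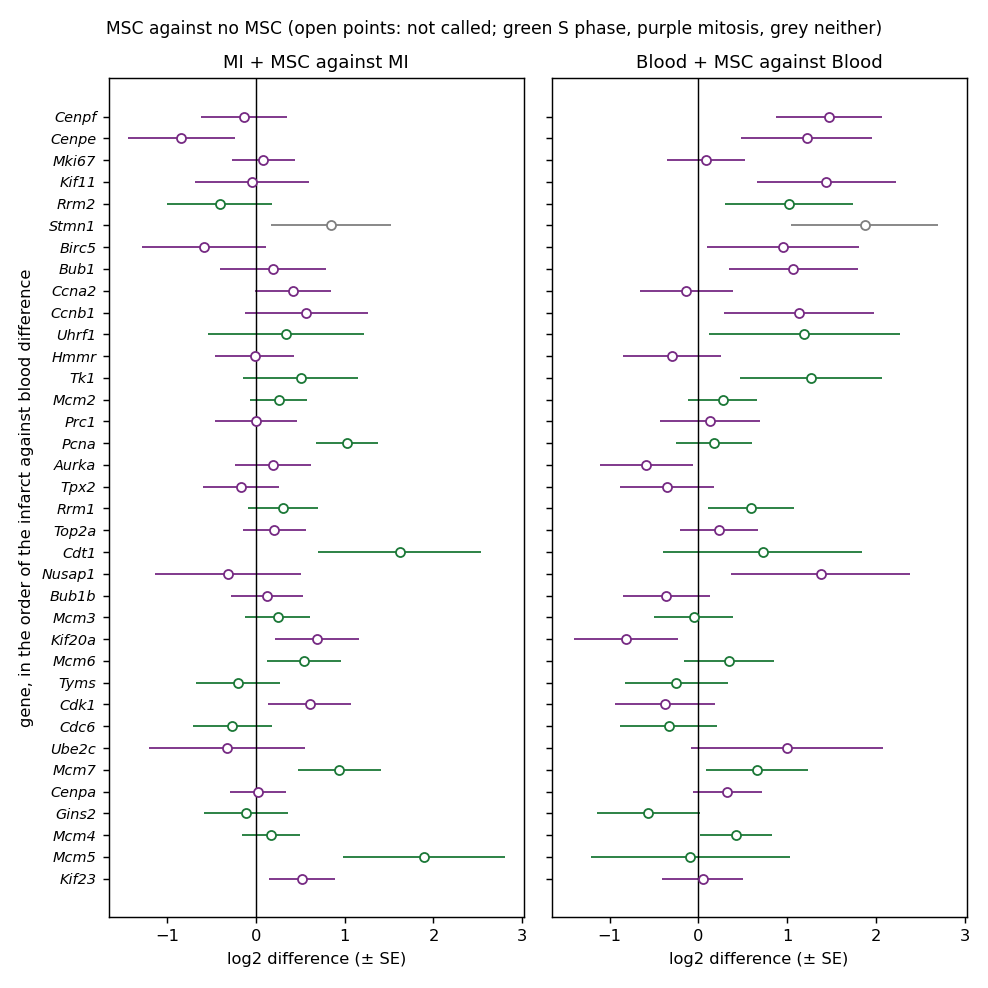
Points give log2 differences with standard errors for the 36 tested genes, on the left between MI + MSC and MI and on the right between Blood + MSC and Blood, in the order of their infarct against blood difference. All points are open, since none was called, and most error bars in both panels lie across or near 0, with Pcna, Mcm5 and Cdt1 to the right in the infarct and Stmn1, Cenpf and Kif11 to the right in blood.

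Other genes of the same pathways were read from lists. Of 35 other replication genes, 27 were tested, and 9 (33.3%) were called higher and 1 (3.7%) lower in the averaged infarct against blood comparison, where 25.3% and 18.1% of all tested genes were. Pclaf, which binds PCNA, rose most (3.00, 43.9 against 4.51 normalized counts), and Orc1 of the origin recognition complex (2.16) and Clspn, an adaptor of the replication checkpoint (1.80), rose too, while Rfc2 of the clamp loader fell by 1.06. Of 36 other mitosis genes, 27 were tested, and 13 (48.1%) were called higher and 3 (11.1%) lower. The spindle proteins Ckap2l (2.32), Ckap2 (1.77) and Aspm (1.55) and the chromosome motor Kif4 (1.81) rose most. The 3 genes called lower were Pttg1, the securin that holds separase back (-1.49, 37.7 against 101 normalized counts), Smc4 of condensin (-1.07) and Espl1, which is separase itself (-0.96). The lowest difference of this list, -1.79, was not called. The list medians were 0.75 and 1.05, against 0.80 and 1.37 for the S-phase and mitosis sets.

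Of 25 regulators of G1, E2F and the DREAM complex, 22 were tested, 7 (31.8%) were called higher and 4 (18.2%) lower, shares near those of all tested genes. Cyclin D1 (Ccnd1) rose by 3.56 (199 against 17.4 normalized counts), the repressor E2f7 by 2.67, cyclin E2 (Ccne2) by 1.86 and Foxm1, a transcription factor of mitotic genes, by 1.79. Cyclin D3 (Ccnd3) fell by 2.003 (147 against 597), E2f2 by 1.19, the pocket protein Rbl2 by 1.18 and Tfdp1, a partner of the E2F proteins, by 0.84. Of 17 CDK inhibitors and checkpoint genes, 15 were tested, 8 (53.3%) were called higher and 3 (20%) lower. The inhibitor p21 (Cdkn1a) rose by 2.10 (224 against 54.5), the kinase Wee1, which holds CDK1 inactive, by 2.05, Gadd45b, a stress gene, by 1.85 and the inhibitor p57 (Cdkn1c) by 1.72. The inhibitors p19 (Cdkn2d) and p27 (Cdkn1b) fell by 2.47 and 1.65, and Gadd45a, another stress gene, by 1.43. In MI against Blood, the counts called higher and lower were 6 and 1 for other replication genes, 7 and 0 for other mitosis genes, 7 and 4 for the G1 list and 7 and 3 for the inhibitors, where 21.2% and 13.5% of all tested genes were called. The share called higher was thus near the background for the other replication genes (22.2%) and the other mitosis genes (25.9%). In MI + MSC against Blood + MSC the counts were 2 and 0, 0 and 0, 3 and 2, and 2 and 1, where 8.23% and 5.85% of all tested genes were called. No gene of the 4 lists was called between MI + MSC and MI or between Blood + MSC and Blood.

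Compared per kb of exon, Pcna led in both tissues, with means of 145 normalized counts per kb in the infarct libraries and 50.4 in blood. Mki67 ranked 2 of 40 in the infarct libraries (27.8) and 12 in blood (3.59). Kif23 ranked 2 in blood (17.7) and 24 in the infarct libraries (4.61). Ccna2, Mcm6 and Top2a followed Mki67 in the infarct libraries, with 15.5, 12.6 and 10.6 per kb, and Mcm4 and Mcm6 followed Kif23 in blood, with 8.94 and 7.96. Cenpf, with the largest difference, was among the lowest per kb in both tissues, at 3.25 and 0.311, over 16.6 kb of exon.

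Markers of other cells moved with the tissue and are given beside these counts. All 8 cardiomyocyte, 7 of 8 endothelial and 4 of 8 fibroblast markers were called higher in the infarct libraries, where 25.3% of all tested genes were. Endothelial markers summed to 1805 to 1922 normalized counts in the MI, 429.9 to 827 in the MI + MSC and 69.7 to 1512 in the blood libraries, and fibroblast markers to 976 to 1719.9 and 501 to 1039. Monocyte and macrophage markers summed to 3026 to 11906 in the infarct libraries and 5760.4 to 7956 in blood. Of these 10 markers, 3 were called higher, near the share of all tested genes. Neutrophil precursor markers, whose cells divide in the marrow, summed to 187 to 934 and 233 to 4373. Of the 6 that were tested, 4 were called lower in the infarct libraries, where 18.1% of all tested genes were. Erythroid markers were higher in blood (488 to 9559 against 52.0 to 311), and Blood 21 held 23938 normalized counts of platelet markers against 564 to 1048 in the other blood libraries. B cell markers summed to 27.6 to 84.1 and 28.3 to 421, and T cell markers to 15.5 to 118 and 18.6 to 92.9. No marker of these lists was at 0 in all libraries of a tissue, and the part of these cells in the reads of the 40 genes was not tested.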

How the data were processed

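RNA of 10 libraries was analysed, grouped by their labels. According to the methods and processing notes, the authors trimmed reads with Trimmomatic, removed duplicates with Picard, mapped to GRCm39 with STAR, counted per gene and strand with featureCounts and normalized with DESeq2. The values as deposited are signal values, obtained by the authors by dividing read counts by a size factor per library. Both deposited tables held the same 281850 values, so the one named as raw counts is normalized too. All values (100%, tolerance 0.001) were whole multiples of the value of 1 read, and reads were recovered by division. Depth was 148594 to 8602711 reads per library, and 3 reads were taken as the floor. Intervals and floors cover counting error alone.

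limma 3.58.1 with an intensity trend was run on log2(normalized count + 2), where 1 mean was fitted for each group in a single model of the 10 libraries (6 residual degrees of freedom), for 11549 genes with a mean of at least 10. A call needed an adjusted p under 0.05 over all tested genes and an absolute log2 difference of at least 0.5 (the interaction of MSC and tissue the adjusted p alone). edgeR 4.0.16, DESeq2 1.42.0 and limma-voom on recovered reads, other scalings, filters and pseudocounts, and fits without single libraries were the alternatives. Python 3.11.15 (pandas 2.3.3, numpy 2.4.6, scipy 1.17.1, matplotlib 3.10.9) and R 4.3.3 were used. Exon lengths and overlaps came from GENCODE for GRCm39, which held 27906 of the 28185 identifiers, and promoter windows from RefSeq on GRCm38.p6. No coordinate was moved between builds.

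The genes and lists were chosen with earlier results of these data known. Values in every library are given for Mki67, Top2a, Cdk1, Ccnb1, Birc5, Ube2c, Mcm5, Mcm6, Pcna, Rrm2, Tyms and Stmn1 and for the 12 called genes with the largest averaged difference, and from each pathway list at most 4 called genes per direction are named, of which 1 is not reported here. Of the marker lists, Ctsg and Gp1bb were not found in the table. Columns of no sample were 0.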

Additional observations from a re-analysis of the deposited data

Results flagged for a closer look

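Cenpe, the kinesin that carries chromosomes to the spindle equator, was called in neither MSC comparison, but its libraries lay in opposite order in the 2 tissues. All 3 MI + MSC libraries (26.4 to 33.2 normalized counts) stood below all 3 MI libraries (35.6 to 134), as did 9.6% of all tested genes. Both Blood + MSC libraries (6.30 and 8.24) read above both Blood libraries (0 and 5.85), as did 21%. The 0 in Blood 21 allows up to 21.2 normalized counts, so the order in blood is not firm. The difference between the MSC differences was -2.06 on the log2 scale (SE 0.95), with an unadjusted p of 0.0528 and an adjusted p of 0.63 in limma, which is not past the threshold. The 2 extreme values, 134 in MI 13 and 0 in Blood 21, come from the shallowest library of each tissue, with 16 and 0 reads.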

How the results depend on the processing

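Kif23 was called lower between infarct and blood, averaged over MSC, in every setting tried for that comparison, and the number of genes called higher there, 21, moved to 13 with a minimum mean of 20 normalized counts, to 9 with TMM scaling, to 9 with the background per kb subtracted, and to 12 to 24 when single libraries were left out. The 13 genes higher in MI than in Blood (21.2%) became 8 with the minimum mean of 20 (18%), 5 with TMM scaling (12.3%) and 20 with library size scaling (33.9%). They became 3 each with DESeq2 on these groups (11.7%), limma-voom with sample quality weights (8.1%) and limma on these groups (9.45%). With the background subtracted they became 4 (9.45%) and with sample weights 7 (10.8%), and the count also moved without single libraries. The 7 genes higher in MI + MSC than in Blood + MSC (8.23%) became 1 with TMM scaling (4.34%) and 2 with the background subtracted (3.95%). They became 19 and 23 with DESeq2 on all libraries and on these groups (17.8% and 20.3%), and 20 with limma on these groups (18.8%). With edgeR they became 21 (16.4%), and with limma-voom and with sample weights 26 each (21.9% and 25.3%). Without single infarct libraries they became 2 to 11 (4.08% to 12.4%). The count also moved without single blood libraries and without the shallowest infarct and blood libraries. The number called lower there, 1 (Kif23), was 0 to 1 without single libraries and 0 with the background subtracted. Between MI + MSC and MI, sample weights gave 1 gene (Pcna). Leaving out single libraries gave 0 to 6 genes higher in Blood + MSC than in Blood and 0 to 2 lower in the interaction, in both cases the higher number without Blood 22. The cause of these moves was not tested. Subtraction of background and sample weights were chosen after the data were seen. Single genes were followed only where the main fit had called them. Over the other settings, 760 of these results kept their direction and side of the threshold, 230 kept the direction alone and 0 reversed. The settings share most of their libraries, and genes that were not called are not covered. Where a group was left with 1 library, it was assumed to vary like the others. No paired analysis was possible because the groups share no replicate number. The depth of MI 13 and Blood 21, where a read is worth 8.40 and 7.07 normalized counts, limits each gene under about 25 normalized counts.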
